A study of Mus musculus with 2 samples.

Results

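The genes described here are 6 genes for non-collagen proteins of the cartilage matrix (Acan, Hapln1, Matn1, Matn3, Comp and Cnmd, the last also written Lect1) and the transcription factor genes Sox9, Sox5 and Sox6, known together as the Sox trio. They were chosen by name, as every probe set whose single platform gene symbol is one of these 9, which gave 9 of the 18193 named genes and 24 of the 45101 probe sets on the array. Whole heads of newborn mice were profiled, with 1 Affymetrix array for each of 2 genotypes, and the comparison asks which transcripts differ when a chromosome part is inherited from the mother alone or from the father alone. Both genotypes descend from mice that carry the reciprocal translocation T11H between Chr 2 and Chr 9. The MatDp(dist2) head had a duplication of maternal origin for the part of Chr 2 beyond the breakpoint and, with it, a duplication of paternal origin for the matching part of Chr 9. The PatDp(dist2) head had the reverse, paternal for distal Chr 2 and maternal for distal Chr 9. Neither head carried these parts from both parents, so no array shows a normal level. The labels state neither how many animals went into a sample nor their sex. None of the 9 genes lies on Chr 2 or Chr 9 (0 of 9), so the inherited parts do not contain them.

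Cartilage resists compression because aggrecan, a very large proteoglycan, binds water and is held on hyaluronan chains by link protein. Matrilins and the thrombospondin relative COMP connect the collagen fibrils with these aggregates, and chondromodulin keeps blood vessels out of the tissue. SOX9 starts the cartilage programme, and SOX5 and SOX6 act beside it at many of the same genes, among them those for aggrecan, matrilin and type II collagen. In the newborn head, cartilage builds the nasal capsule, the skull base and the ear, but the 3 Sox genes are also active elsewhere, Sox9 in glia and hair follicles, Sox5 in cortical neurons and Sox6 in muscle, red cell precursors and neurons.

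The 250 bases upstream of the annotated start, from RefSeq on GRCm38.p6, are shown for Sox5 and Sox6, the 2 closely related regulators whose signals lay on opposite sides, and for Cnmd, the matrix gene with the widest difference as a bound. Each runs 5′ to 3′ on the minus strand, the strand of its gene, at chr6:143947107-143947356 for Sox5, chr7:116038745-116038994 for the outermost of the 6 Sox6 starts and chr14:79662184-79662433 for Cnmd. Capitals mark ACAAAG or ACAATG, 6-letter forms of the core that Sox proteins bind, or their complements CTTTGT and CATTGT.
Sox5: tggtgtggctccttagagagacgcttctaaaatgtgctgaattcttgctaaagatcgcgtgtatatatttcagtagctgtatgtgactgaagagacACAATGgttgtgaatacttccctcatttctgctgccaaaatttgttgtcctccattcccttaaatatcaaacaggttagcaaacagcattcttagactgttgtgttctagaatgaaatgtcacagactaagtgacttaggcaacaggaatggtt
Sox6: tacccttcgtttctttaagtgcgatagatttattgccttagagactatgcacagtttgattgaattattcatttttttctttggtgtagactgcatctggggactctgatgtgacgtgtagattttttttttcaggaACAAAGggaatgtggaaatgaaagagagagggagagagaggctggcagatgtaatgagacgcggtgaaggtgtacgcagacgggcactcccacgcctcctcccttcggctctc
Cnmd: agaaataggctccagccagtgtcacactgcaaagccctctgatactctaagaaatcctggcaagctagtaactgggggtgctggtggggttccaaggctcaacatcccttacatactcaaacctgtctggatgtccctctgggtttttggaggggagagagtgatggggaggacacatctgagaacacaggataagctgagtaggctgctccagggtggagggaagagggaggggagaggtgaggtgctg
Upstream windows were found for 7 of the 9 genes, and those of Comp and Sox9 are named only. ACAATG, on either strand, occurred once (1) in the Sox5 window and in 2 of 6 Sox6 windows, and ACAAAG occurred in 5 of 6 Sox6 windows. None of the 5 windows of Acan, Hapln1, Matn1, Matn3 and Cnmd held either motif (0 of 5). Of all 32851 windows of this length, 16.5% held ACAAAG and 10.7% held ACAATG, with 25.2% holding at least 1 of them. Each printed window holds at most 1 match, so none overlap. A match describes these letters only.

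In what follows, a pair of signals is given in the order MatDp(dist2), PatDp(dist2). Median signals of the arrays were 201 and 173, and the brightest probe sets had 22236.3 and 22894.5. A floor of 187, the 50th percentile of signal taken over both arrays, served in place of a detection call, and 51.6% and 48.3% of probe sets reached it. A gene or probe set is called measured where at least 1 array reached the floor. Where only 1 did, the fold is the brighter signal over the floor and reads "at least". With 1 array per genotype no difference could be set against the spread between animals, nothing was tested, and precision is limited by the number of arrays. In a whole head, fewer cells of a type and less RNA per cell cannot be told apart.

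Among the regulators, the measured probe sets of Sox5 and Sox9 had more signal in the MatDp(dist2) head and those of Sox6 slightly less, with 1 array each. The Sox5 differences are bounds whose direction the floor fixed. The Sox9 and Sox6 values lay between the 5th and the 95th percentile of named probe sets of like brightness. Across all 24 probe sets, 14 were measured, all 14 of them in the MatDp(dist2) head and 6 also in the PatDp(dist2) head. Of the 14, 3 favoured MatDp(dist2) by 2-fold or more, against 4.22% of all 20764 measured named probe sets. Of the same 14, 0 favoured PatDp(dist2) by that much, against 2.95% of all. The 3 probe sets belong to Sox5 and Cnmd, and probe sets of 1 gene are not independent of each other. All 3 are bounds. The 8 probe sets that reached the floor on 1 array did so with MatDp(dist2), so the floor fixed their direction. They could not have counted towards PatDp(dist2), and the set against the shares of all probe sets is limited by this.

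**Figure D1:**
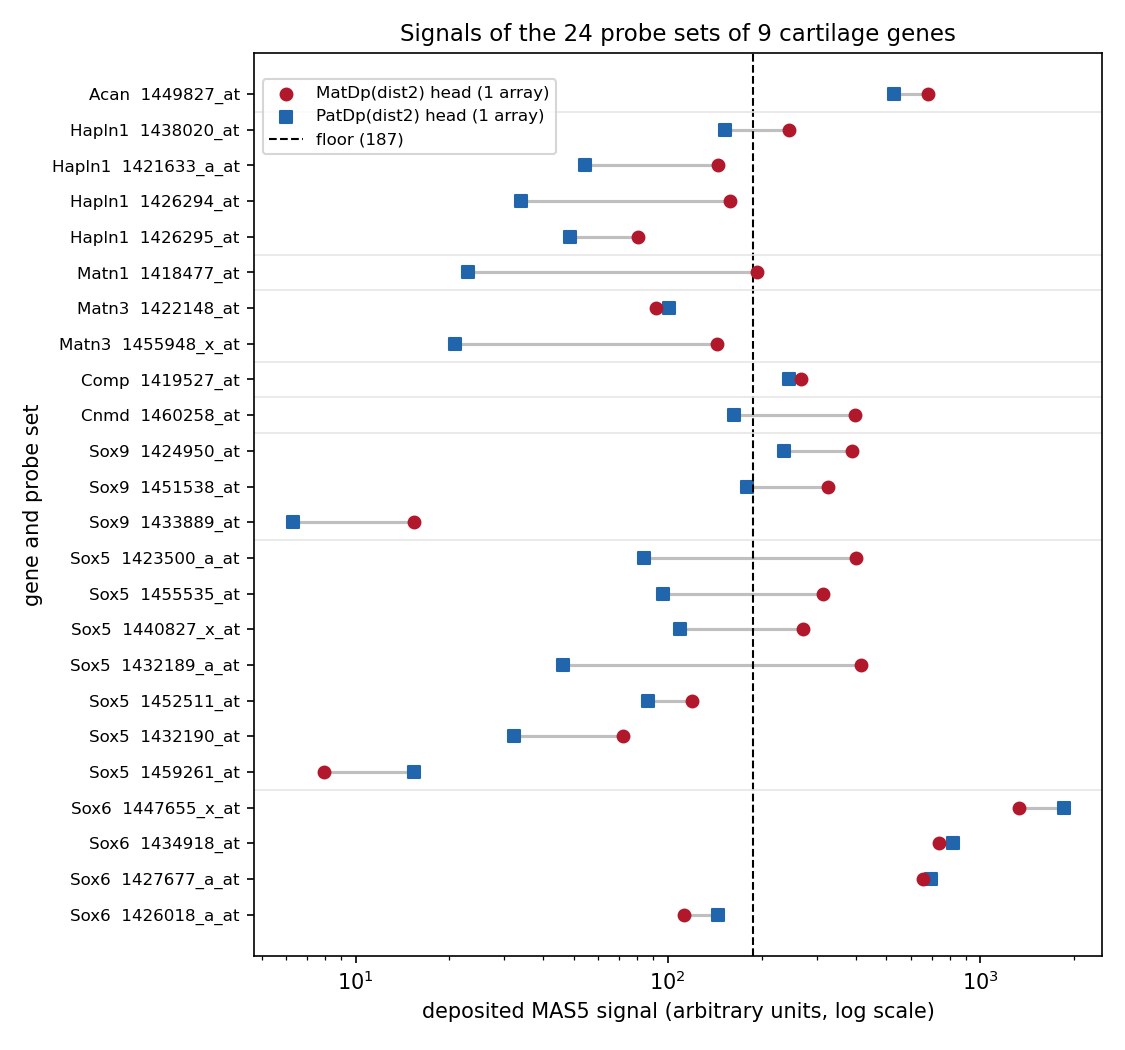
Deposited signal of each of the 24 probe sets on a log axis, as a circle for the MatDp(dist2) head and a square for the PatDp(dist2) head, with the floor of 187 as a dashed line. The 4 measured Sox5 probe sets cross the floor from left to right, while all 4 Sox6 probe sets have the square on the right.

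Sox9, the regulator without which cartilage does not form, was read by 3 probe sets. Probe set 1424950_at gave signals of 390.1 and 236.1, a 1.65-fold difference. Probe set 1451538_at, designed from the same cDNA record, had 326.2 and 179.4, at least 1.74-fold. Both favoured MatDp(dist2) by less than 2-fold. The third, 1433889_at, had signals of 15.4 and 6.3, far below the floor.

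Sox5, a partner of Sox9 that lacks an activation domain of its own, was measured on 4 of its 7 probe sets, each time in the MatDp(dist2) head alone. Probe set 1432189_a_at gave signals of 416.8 and 46.1, at least 2.23-fold. Probe set 1423500_a_at had 402.1 and 83.7, at least 2.15-fold. These were the 2 Sox5 probe sets past 2-fold, and their PatDp(dist2) signals lay so far below the floor that the bound is much smaller than the ratio of the deposited signals. Probe set 1455535_at had 314.1 and 96.4, at least 1.68-fold. Probe set 1440827_x_at, whose suffix marks probes that may also match other transcripts, had 270.3 and 109.4, at least 1.45-fold. The remaining 3 reached the floor in neither head. Of these, 1452511_at (119.7 and 86.7) and 1432190_at (71.7 and 32.2) were dimmer in the PatDp(dist2) head and 1459261_at (7.9 and 15.4) was dimmer in the MatDp(dist2) head. In all, 6 of 7 Sox5 probe sets had the higher deposited signal in the MatDp(dist2) head, and probe sets of 1 gene are not independent. Of all named probe sets of like brightness, 58.1% to 66.7% were brighter there too.

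Sox6, the nearest relative of Sox5, went the other way on all 4 probe sets by small amounts. Probe set 1447655_x_at gave 1332.1 and 1857.4, which is 1.39-fold more with PatDp(dist2). Probe set 1434918_at had 740.9 and 816.8, a 1.10-fold difference, and 1427677_a_at had 656.9 and 697.1, a 1.06-fold difference. The fourth, 1426018_a_at, was below the floor with 112.4 and 145.0. The 3 measured Sox6 probe sets were above the floor in both heads, so their ratios are not bounds. The largest of them rests on a probe set with the suffix for possible matches elsewhere.

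All 6 matrix genes had at least 1 probe set with a higher deposited signal in the MatDp(dist2) head, Matn3 only through the dimmer of its 2. Of all named probe sets of like brightness (mean log2 signal from 5 to 10, in steps of 1), 56.0% to 66.7% were brighter there too. For most of the 6 genes the PatDp(dist2) signal lay below the floor and the fold that can be stated is small. Acan, which encodes aggrecan, had 684.1 and 528.7, a 1.29-fold difference with both heads above the floor. Hapln1, the link protein gene, was measured on 1 of its 4 probe sets, 1438020_at, with 243.9 and 152.8, at least 1.30-fold. Its other probe sets were below the floor in both heads, with 144.5 and 54.4 on 1421633_a_at, 158.6 and 33.9 on 1426294_at, and 80.4 and 48.7 on 1426295_at. All 4 Hapln1 probe sets were thus brighter in the MatDp(dist2) head, and 3 of them were too dim for a fold.

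Matn1, the matrilin gene of cartilage used as one of its defining markers, had 192.7 with MatDp(dist2), just above the floor, and 22.9 with PatDp(dist2). The bound is therefore only 1.03-fold, although the deposited signals lie far apart. Matn3, a second cartilage matrilin, was below the floor everywhere, with 91.9 and 101.2 on 1422148_at and 143.9 and 20.9 on 1455948_x_at. Its 2 probe sets point in opposite directions and no fold is given. Comp, found in cartilage and tendon, had 266.5 and 245.0, a 1.09-fold difference with both heads above the floor. Quantile normalization turned the sign of the Comp log2 ratio, from 0.12 to -0.07. Cnmd, the gene for chondromodulin, had 399.1 and 163.1, at least 2.13-fold and the widest bound among the matrix genes.

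With each gene represented by its brightest probe set on average (mean of log2 signals), 8 of the 9 genes were measured, 4 of them in the MatDp(dist2) head alone. Their log2 ratios, MatDp(dist2) over PatDp(dist2), were 1.10 for Sox5, 1.09 for Cnmd, 0.72 for Sox9, 0.38 for Hapln1, 0.37 for Acan, 0.12 for Comp, 0.04 for Matn1 and -0.48 for Sox6, with those of Sox5, Cnmd, Hapln1 and Matn1 as bounds. Of the 8, 2 favoured MatDp(dist2) by 2-fold or more, Sox5 and Cnmd, against 4.43% of 12483 measured genes. In the PatDp(dist2) direction there were 0 of the 8, against 3.47% of all. The median log2 ratio of the 8 was 0.38, and that of all measured genes was 0.02. The sign of the 4 bounds is fixed by the floor, which these genes reached with MatDp(dist2) alone, and the median includes them. Of the 4 genes at or above the floor in both heads, Sox9, Acan and Comp had ratios above 0 and Sox6 below. With the floor at the 70th percentile of signal, 465, the genes still measured had a median of -0.05 and 0 were past 2-fold, because Sox5, Sox9, Cnmd and the other dim genes dropped out and Acan and Sox6 remained.

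Dim probe sets spread widely between the arrays, and tended to be brighter in the MatDp(dist2) head. Bright ones tended the other way. With a mean log2 signal from 10 to 11, where the brightest Sox6 probe set lies, 47.7% of named probe sets were brighter with MatDp(dist2). From 11 to 12 the share was 37.9%. Among 5359 named probe sets whose mean log2 signal lay between 7 and 8, where most measured Sox5, Sox9 and matrix probe sets lie, the log2 ratio of the deposited signals without a floor had a 5th percentile of -0.77, a median of 0.20 and a 95th percentile of 1.24, and 66.7% were brighter in the MatDp(dist2) head. The 4 measured Sox5 probe sets had log2 ratios of 3.18, 2.26, 1.70 and 1.30 on this scale, all above that 95th percentile. They reached the floor with MatDp(dist2) alone, which favours a high ratio, whereas the probe sets of the band were not selected so. The other 3 Sox5 probe sets lay inside the ranges of their bands. Cnmd, with 1.29, lay just above it. Matn1 (3.07) and Hapln1 1426294_at (2.23) exceeded the 95th percentile of 1.43 in the band from 6 to 7, and Matn3 1455948_x_at (2.78) that of 2.18 in the band from 5 to 6. Acan, Comp, all Sox9 and all Sox6 probe sets lay inside the range from the 5th to the 95th percentile of their bands. In total 8 of 24 probe sets lay above the range, 4 of them from Sox5, and 16 inside it. By construction about 5% of all named probe sets of a band lie above its range. Cnmd and Matn1, like Sox5, reached the floor with MatDp(dist2) alone. Each of the 8 used at least 1 signal below the floor, where MAS5 values are noisy.

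**Figure D2:**
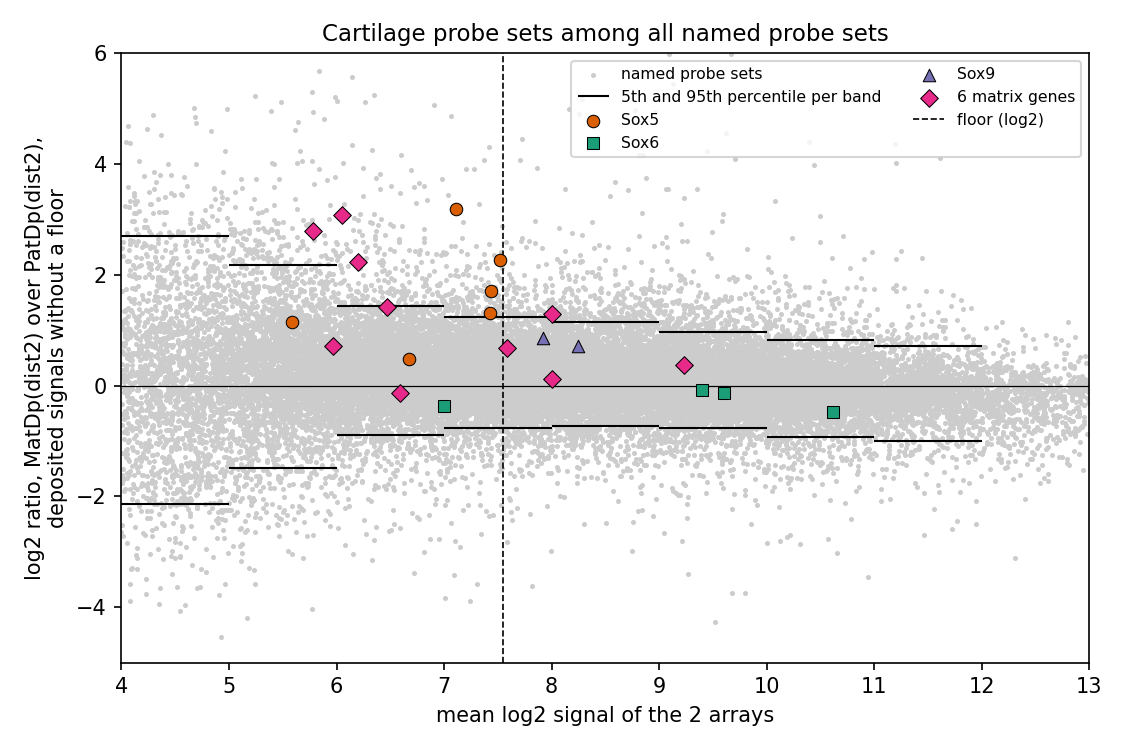
Log2 ratio of the deposited signals, MatDp(dist2) over PatDp(dist2), against the mean log2 signal for named probe sets (grey) and the cartilage probe sets (coloured by gene), with short black lines at the 5th and 95th percentile of each band from 4 to 12. The 4 brighter Sox5 probe sets lie above the lines and the Sox6 probe sets between them. A Sox5 and a Sox9 probe set with a mean log2 signal under 4 are not drawn.

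Fibrillar and associated collagens of cartilage, the partners of these proteins in the matrix, lay mostly on the MatDp(dist2) side. Of 8 genes 7 were measured, 2 favoured MatDp(dist2) by 2-fold or more and 0 favoured PatDp(dist2) by that much, and the median log2 ratio was 0.40. Over all measured genes the shares were 4.43% and 3.47% and the median 0.02, which also serve as reference for the lists below. Col11a1 (2431.0 and 2534.4) and Col27a1 (2332.4 and 2863.0) lay on the PatDp(dist2) side. Col2a1, for the main cartilage collagen and a textbook target of the Sox trio, had 2660.5 and 1159.3, 2.29-fold. Col9a3 had 839.6 and 412.5, 2.04-fold, and Col9a1 had 2624.2 and 1466.7, 1.79-fold. Col9a3 lies on Chr 2, and where the breakpoint falls relative to it is not placed by the labels. Its fold dropped under 2 with an offset of 100 and with each of 3 rescalings, by loess, by quantiles and by the median.

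The wider cartilage lists did not share a direction. Of 16 measured genes for other cartilage matrix proteins, 1 favoured MatDp(dist2) by 2-fold or more and 0 favoured PatDp(dist2) so, and the median log2 ratio was -0.06. Snorc, a small proteoglycan of chondrocytes, had signals of 384.9 and 149.2, at least 2.06-fold more with MatDp(dist2), and Mia, secreted by chondrocytes, had 584.8 and 318.4. Prelp, a leucine-rich repeat protein of many connective tissues, went the other way with 746.5 and 1470.7, 1.97-fold. The list also holds proteins of skin and tendon.

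Of 12 measured regulators and signals of chondrocytes, 0 were at least 2-fold apart in either direction and the median was -0.02. The largest differences were those of Mef2c, a factor of hypertrophic chondrocytes and of muscle and neurons (3717.6 and 5032.7), the BMP receptor gene Bmpr1b (234.8 and 157.0, at least 1.26-fold) and Pitx1 (363.2 and 428.8). Enzymes and transporters that build and sulfate glycosaminoglycan chains, the sugars carried by aggrecan, had 0 of 14 genes at least 2-fold apart and a median of 0.04. Chpf (414.7 and 285.6), B3gat3 (480.0 and 366.4) and Papss1 (2469.6 and 2084.9) led that list. Of 11 measured genes of matrix turnover, 0 were at least 2-fold apart, and the median was -0.29. Adamts5, an aggrecan-cleaving protease, had 730.7 and 1258.7, 1.72-fold, followed by the collagenase Mmp13 (2255.4 and 3516.8) and Adamts4, another aggrecanase (402.5 and 538.2).

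**Figure D3:**
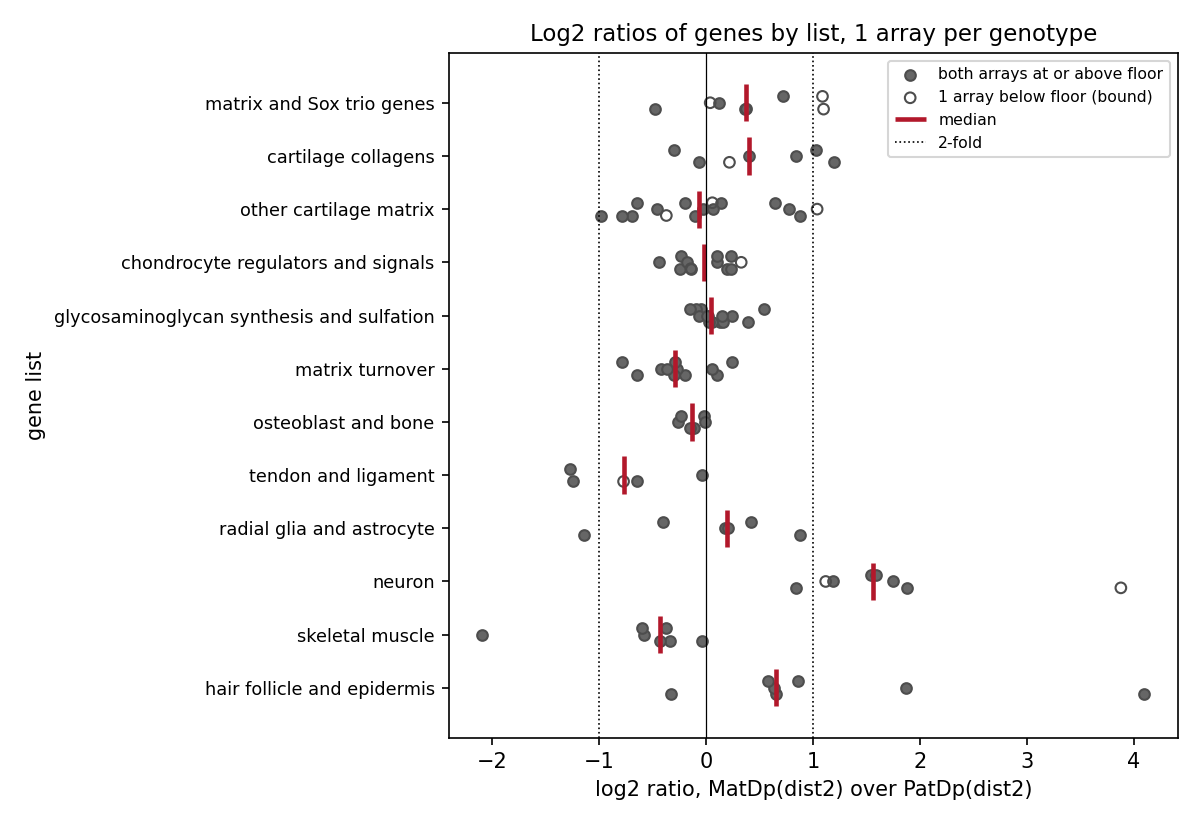
Log2 ratio of each measured gene by list, with filled points for genes at or above the floor in both heads, open points for bounds, a red bar at the median and dotted lines at 2-fold. The 9 cartilage genes studied (8 measured) and the cartilage collagens have medians of 0.38 and 0.40, the neuron markers 1.56 and the tendon markers -0.77.

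Close relatives of the matrix genes that serve other tissues had their own values. Tnmd, the tendon relative of Cnmd, had 1698.0 and 4001.5, which is 2.36-fold more with PatDp(dist2) and the reverse of Cnmd. Thbs4, a tendon relative of Comp, had 786.2 and 1897.2, 2.41-fold more with PatDp(dist2), while Comp itself was nearly level. The other thrombospondin genes were close to level on their brightest probe sets, with 550.7 and 508.5 for Thbs1, 2206.9 and 2534.6 for Thbs2, and 899.2 and 914.5 for Thbs3.

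The relatives below are given by their brightest probe set unless another is named. Ncan, for the brain proteoglycan neurocan of the aggrecan family, had 5959.7 and 1933.1, 3.08-fold more with MatDp(dist2), where Acan had 1.29-fold more. Its probe set 1434679_at, also above the floor in both heads, had 1118.4 and 547.3, 2.04-fold. The brain relative Bcan (2393.5 and 1811.1) and the widely expressed Vcan (3201.8 and 2903.7) were less far apart. Other Vcan probe sets above the floor lay on opposite sides, 1421694_a_at with 1008.6 and 1337.2 and 1427257_at with 748.2 and 667.9. The link protein relatives Hapln2, Hapln3 and Hapln4 were below the floor in both heads. Of the other matrilins, Matn2, made in many tissues, had 2842.9 and 4582.6, and Matn4, on Chr 2, had 595.1 and 345.9, so that they lay on opposite sides. Among the relatives of the Sox trio, Sox13, the third member of the Sox5 and Sox6 group, had 413.6 and 389.6, and Sox10, a relative of Sox9 in neural crest glia, had 486.8 and 569.0. Another Sox10 probe set above the floor, 1424985_a_at, was nearly level with 424.0 and 413.9. Sox8 was below the floor.

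The chondrocyte markers, which include 5 of the 9 genes, were all measured in the MatDp(dist2) head (7 of 7). Their summed signals were 7194.6 there and 3729.6 in the PatDp(dist2) head. Col2a1 (2660.5 and 1159.3) and Col9a1 (2624.2 and 1466.7) contributed most to both sums. Of the other markers, Sox9 was 1.65-fold and Acan 1.29-fold apart. Cnmd, Hapln1 and Matn1 had bounds of 2.13-fold, 1.30-fold and 1.03-fold. The PatDp(dist2) signals of these last genes did not reach the floor, yet that sum includes them. Of 4 markers of hypertrophic cartilage, Col10a1 and Ihh were below the floor in both heads (78.2 and 28.8, 183.7 and 144.0), while Mmp13, which bone cells make too, had 2255.4 and 3516.8 and Pth1r had 1200.3 and 1043.7. Bone markers differed little, with 0 of 6 at least 2-fold apart, summed signals of 27185.9 and 28416.3 and a median log2 ratio of -0.13. Tendon markers had a median of -0.77, with 2 of 5 favouring PatDp(dist2) by 2-fold or more and summed signals of 3803.1 and 7871.2.

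Markers of other tissues that express Sox genes differed too. Of 8 neuron markers 7 favoured MatDp(dist2) by 2-fold or more and 0 favoured PatDp(dist2) so, with summed signals of 27907.7 and 10282.8 and a median log2 ratio of 1.56. Tubb3 had 2853.4 and 774.8, and Neurod6, of cortical excitatory neurons, had 2751.7 and 90.1. Sox5, which is also active in cortical neurons, lay on the same side, while Sox6, also active in neurons, lay slightly on the other. Of 7 markers of hair follicle and epidermis, 2 favoured MatDp(dist2) by 2-fold or more and 0 favoured PatDp(dist2) so, with a median of 0.66 and summed signals of 25493.5 and 8836.4, to which Krt10 (12992.7 and 755.9) contributed most. Radial glia and astrocyte markers were mixed, with 4 of 6 measured genes above 0 and 2 below, summed signals of 25327.2 and 25047.1, and the widest differences in Aqp4 (737.5 and 1621.2) and Fabp7 (10109.4 and 5499.1). Skeletal muscle markers, all 7 brighter with PatDp(dist2) and 1 of them past 2-fold, had summed signals of 53803.5 and 72874.8 and a median of -0.43.

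Oligodendrocyte lineage markers had a median of 0.00 with summed signals of 6220.3 and 9647.3, and 1 of 5, Mbp, favoured PatDp(dist2) by 2-fold or more. The 2 measured red cell markers lay on opposite sides, Alas2 with 1912.2 and 1623.4 and Slc4a1 with 412.7 and 775.5. Of 4 markers of pigment cells and neural crest glia, Pmel (827.6 and 337.5) and Dct (748.1 and 327.3) favoured MatDp(dist2) by 2-fold or more, while Sox10 and Mitf (316.3 and 417.3) were not. No marker named here was listed at 0. The part of these tissues in the Sox5, Sox6 and Sox9 values was not tested.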

How the data were processed

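RNA from newborn whole heads was measured on 2 arrays, 1 for MatDp(dist2) and 1 for PatDp(dist2), and nothing in the labels describes further replicates. The values deposited by the authors are signal intensities on a linear scale, made with MAS5 and GCOS (versions not given) per the submitters' processing notes. On both arrays the mean without the lowest and highest 2% was 500.002, so each carries a scaling to that value. MAS5 subtracts mismatch probes, which makes low signals noisy.

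Of the probe sets, 64 controls were left out and 34945 had 1 symbol in the platform annotation, 34741 of these with a gene ID in the RefSeq table for GRCm38.p6, used for current names and chromosomes. That annotation can be old. Signals were only turned into log2 ratios, with the floor and bounds described above, in Python 3.11.15, pandas 2.3.3 and numpy 2.4.6. The scripts were tested on simulated data, with changes placed only in probe sets well above the floor, so dim signals and bounds were not covered. Described by name were every member probe set, every listed relative and, in the cartilage lists, the 3 widest differences. Cell type marker lists were named in full, in part or not at all, so the markers named there follow no fixed rule. Counts and medians cover every measured gene of a list. The genes and lists were chosen with earlier results of these data known. Alternatives were floors at the 30th and 70th percentile, median centring, quantile normalization, a loess fit, an offset of 100, a 3-fold threshold and the mean over probe sets.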

Additional observations from a re-analysis of the deposited data

How the results depend on the processing

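The count of probe sets of the 9 genes that favoured MatDp(dist2) by 2-fold or more, 3 as reported, was 7 with the floor at the 30th percentile (a signal of 75.1), and 0 with the floor at the 70th percentile, the offset of 100 or the 3-fold threshold. The count of genes, 2 as reported, was 0 under those last 3 settings and 0 with the mean over probe sets, which keeps only probe sets above the floor in both heads and so drops Sox5 and Cnmd. For cartilage collagens the count of 2 was 1 with the floor at the 70th percentile, the offset of 100, the loess fit, quantile normalization and median centring, and 0 at 3-fold. For other cartilage matrix the count of 1 in the MatDp(dist2) direction was 0 with the floor at the 70th percentile, the offset of 100, quantile normalization, the loess fit, the 3-fold threshold and the mean over probe sets. Its count in the PatDp(dist2) direction, 0 as reported, was 1 with median centring and quantile normalization, and that of chondrocyte regulators, also 0, was 1 with the floor at the 30th percentile. Apart from the constructions named, the cause was not tested. Where the Sox5 and Cnmd values past 2-fold were bounds, the floor fixed their sign, so a kept sign there cannot show robustness. Col2a1 and Col9a3 kept their sign under these alternatives, Col9a3 as a bound with the floor at the 70th percentile. The signs of other genes outside the 9 were not followed. With the floor at the 30th percentile the bound of Sox5 1432189_a_at rose to a log2 ratio of 2.47, and that of Matn1 to 1.36. Both signals of Sox5 1423500_a_at and both of Cnmd reached that lower floor. Their log2 ratios of 2.26 and 1.29 were no longer bounds and lay above 0. The median of the genes stayed above 0 except with the floor at the 70th percentile. The signs of the 3 measured Sox6 probe sets were negative under every scaling, floor and offset tried. Dim signals limit these results, since only 6 of 24 probe sets reached the floor in both heads. Leaving out a replicate cannot be done with 1 array per genotype. No paired analysis was possible because the groups hold 1 array each.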
